A study of Danio rerio with 18 samples.

Results

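The genes described are the thyroid genes ttr, dio2, pax8 and nkx2.1 of zebrafish, measured in whole larvae that were exposed to bisphenol A (BPA). They were chosen by gene symbol, with every probe of each gene and every spot used, which gave 5 probes (2 of them for dio2) among the 22980 probes of the arrays, and 4 of the 9264 genes with a symbol. Larvae were exposed from 3 h post-fertilization for 7 days to 500, 1500 or 4500 µg/L BPA in egg water. Control larvae were kept in egg water with 0.05% ethanol, the vehicle that the BPA solutions also held. All larvae were collected at the end of the exposure, at an age of 7 days post-fertilization. RNA of pooled larvae was labelled with Cy5 and hybridized together with Cy3-labelled reference RNA of whole wild-type adults, males and females mixed at 9:1. The authors describe the larvae of the array experiment as wild-type, and dyes were not swapped between the channels.

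Thyroid follicle cells make thyroxine, which is carried in blood by binding proteins and is turned inside tissues into the more active triiodothyronine. The transcription factors Nkx2.1 and Pax8 act in the formation and differentiation of the gland in vertebrates, deiodinase type 2 (dio2) activates the hormone by removing an iodine atom, and transthyretin (ttr) binds and carries it. In zebrafish, nkx2.1 (titf1b on the array) is best known from the ventral forebrain, while its relative nkx2.4b (titf1a on the array) marks the thyroid primordium. The gene pax8 is also expressed in the pronephros and the otic vesicle, and ttr in the liver. Whole larvae were measured, so that fewer cells of a type and less RNA per cell cannot be told apart.

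The 18 deposited scans held 16 different arrays, since 2 pairs of scans shared nearly all of their larval intensities and were averaged. Controls thus had 4 arrays, and the groups at 500, 1500 and 4500 µg/L had 5, 3 and 4. Each scan is labelled as a replicate of its own, the paired scans included, and the authors describe 18 arrays of biological replicates. The authors kept 5127 to 19980 normalized ratios per scan. The reference channel had a median background of 162 to 247 scanner units in controls, in the 500 µg/L group and on the remaining exposed arrays, but of only 92 and 129 units for 2 arrays of the 1500 µg/L group and of 110 and 111 units for 2 arrays of the 4500 µg/L group. The log2 ratio given for an array is that of larval (Cy5) to reference (Cy3) signal, and a difference is the mean log2 ratio of a BPA group minus that of the control group, unless another pair of groups is named. The number of arrays limits the precision of each mean.

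None of the 5 probes changed at an adjusted p under 0.05 in limma at any concentration, nor between any 2 concentrations (0% of all probes did at 1500 against 500 µg/L and at 4500 against 1500 µg/L). At 4500 µg/L this was 0 of 5 probes, against 3.08% of all probes. The count was 0 of 5 at 1500 µg/L too, against 0.0131% of all probes, and 0 of 5 in the 500 µg/L group, against 0%. At an unadjusted p under 0.05, the count was 3 of 5 at 4500 µg/L (ttr higher, dio2 probe 5462907 and nkx2.1 lower), against 21.8% of all probes. It was 1 of 5 at 1500 µg/L (ttr, higher), against 11.2% of all probes, and 1 of 5 at 500 µg/L (dio2 probe 5462907, lower), against 3.72%. The F-test over the 4 groups gave the 5 probes false discovery rates between 0.234 and 0.663, above the level of 0.2 that 6.29% of all probes met. The median difference of the 5 probes was -0.41, -0.31 and -0.56 at 500, 1500 and 4500 µg/L, beside 0.02, 0.04 and 0.02 for all probes. The 3 comparisons share the control arrays. The 5 probes were chosen with earlier results of these data known, so that these counts describe them and are no test.

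How bright the spots were sets how these ratios can be read. A spot is called above background here where at least 50% of its pixels were brighter than the local background plus 2 standard deviations, a criterion chosen after the values had been seen. In the larval channel, nkx2.1 and pax8 were each above background on 9 of the 16 arrays, dio2 probe 5462907 on 4, and ttr and dio2 probe 5466216 on none. In the reference channel, nkx2.1 was above background on 16 arrays, pax8 and dio2 probe 5462907 on 10, ttr on 4 and dio2 probe 5466216 on 3. Over all spots, 19.0% were above background in the larval channel on no array and 4.96% on every array. The authors kept a ratio for nkx2.1 in 17 of 18 scans, for pax8 in 11, for dio2 probe 5462907 in 7, and for ttr and dio2 probe 5466216 in 2 each. For the last 2 probes the larval signal is thus a bound, and no fold change of expression is given. For some probes a median percentile is given below. It ranks the foreground minus background of a spot among all spots of its array, as the median over a group. The reference RNA was a common pool for all arrays.

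**Figure D1:**
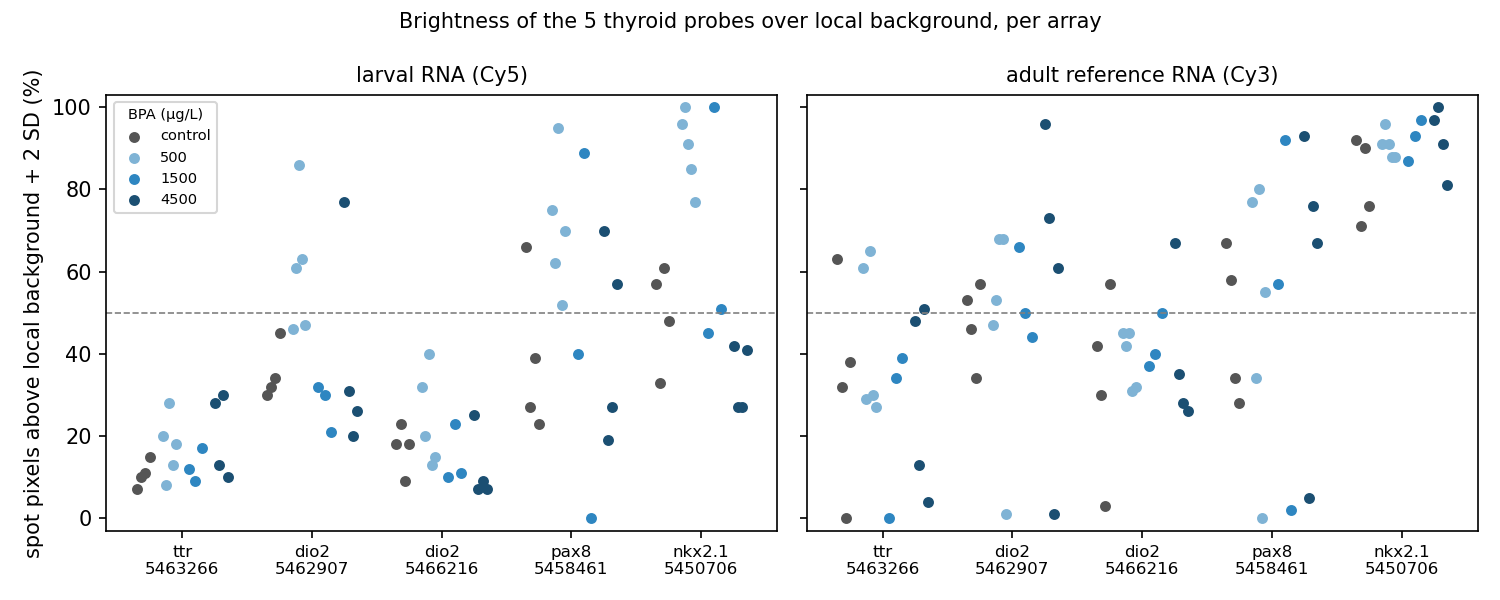
Share of spot pixels (%) brighter than the local background plus 2 standard deviations, for each of the 5 probes on each of the 16 arrays, in the larval Cy5 channel (left) and the adult reference Cy3 channel (right), coloured by BPA concentration. The dashed line is at 50%; nkx2.1 lies above it on 16 arrays in the reference channel and ttr on none in the larval channel.

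Of the 4 genes, nkx2.1, a homeobox transcription factor, had the most complete measurement. Its log2 ratios were -0.48, 0.05, -0.39 and -0.59 on the control arrays and -0.43, -0.01, -0.18, 0.04 and -0.21 at 500 µg/L. They were -0.83, -0.29 and -0.88 at 1500 µg/L and -1.64, -0.89, -0.73 and -0.55 at 4500 µg/L. The arrays at 4500 µg/L all lay below the arrays at 500 µg/L, and 3 of the 4 lay below every control array. The group means were -0.36 ± 0.28 (SD, n = 4) in controls, -0.16 ± 0.19 (n = 5) at 500 µg/L, -0.67 ± 0.33 (n = 3) at 1500 µg/L and -0.95 ± 0.48 (n = 4) at the highest concentration. From high to low, the means stood in the order 500 µg/L, control, 1500 µg/L, 4500 µg/L, and each neighbouring pair had overlapping values.

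Against the control, nkx2.1 was -0.60 (standard error 0.25, 95% confidence interval -1.12 to -0.07) in the 4500 µg/L group (adjusted p = 0.172 in limma). The exact permutation test gave p = 0.0571 (two-sided, 4 arrays against 4), where 0.0286 is the smallest that this design allows. The difference was 0.20 (standard error 0.24) at 500 µg/L and -0.31 (standard error 0.27) at 1500 µg/L. At 4500 against 500 µg/L it was -0.80 (standard error 0.24, 95% confidence interval -1.29 to -0.30), with an adjusted p of 0.116 in limma, so that it too missed the threshold that 0.0827% of all probes met. It was the only 1 of the 5 probes with an unadjusted p under 0.05 in this comparison, against 17.8% of all probes. The exact permutation p was 0.0159 (two-sided, 4 arrays against 5), the smallest possible, and 2.18% of all probes were likewise lower on every 4500 µg/L array than on every 500 µg/L array. This comparison was past the threshold under only 2 of 21 alternatives, over which the difference ran from -0.97 to -0.52. With median centring in place of loess it was -0.97 (adjusted p = 0.0493 in limma), where 356 of 22980 probes were called. Without replicate 4 at 4500 µg/L it was -0.93 (adjusted p = 0.0337 in limma), where 1682 of 22980 were called, against 19 in the main fit.

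The larval spot of nkx2.1 was also the dimmest relative to its surroundings at 4500 µg/L. At 500 µg/L, 77% to 100% of its pixels were above background on the 5 arrays. The share was 27% to 42% at 4500 µg/L, and none of the 4 spots counted as above background. The larval signal at 4500 µg/L is therefore only an upper limit, and no fold change is given. The reference spot had 71% to 100% of its pixels above background. In controls, 2 of the 4 larval spots were above background, so that the difference from the control compares bounds in part. Over all spots, the share of spots above background in the larval channel also differed between arrays. It was 17.9% to 32.8% in controls, 31.8% to 67.2% at 500 µg/L, 21.4% to 32.5% at 1500 µg/L and 12.7% to 43.7% at 4500 µg/L. The part of this difference in the nkx2.1 values was not tested.

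The ratios that the authors kept covered 3 of the 4 control arrays and every BPA array for nkx2.1. The authors' ratios on the 4 arrays at 4500 µg/L were -1.18, -0.73, -0.57 and -0.40. On the 3 control arrays they were -0.36, -0.40 and -0.48, so that the lowest 3 values at 4500 µg/L lay below all of them. With these ratios in the fit, the difference at 4500 µg/L from the control was -0.31 (adjusted p = 0.462 in limma). The related genes nkx2.4b and nkx2.4a were at -0.30 (standard error 0.26) and 0.07 (standard error 0.27) at 4500 µg/L, both without a call. Of 11 probes for 8 of 10 listed marker genes of the hypothalamus and ventral forebrain, where nkx2.1 is best known, 0 were called at any concentration. At 4500 µg/L, where 21.8% of all probes had an unadjusted p under 0.05 in either direction, 3 of the 11 were higher and 0 lower by that cut. The mean log2 ratio of these probes was -0.40 to 0.05 over the control arrays, -0.12 to 0.24 at 500 µg/L, 0.07 to 0.19 at 1500 µg/L and -0.03 to 0.22 at 4500 µg/L, and its part in the nkx2.1 values was not tested.

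**Figure D2:**
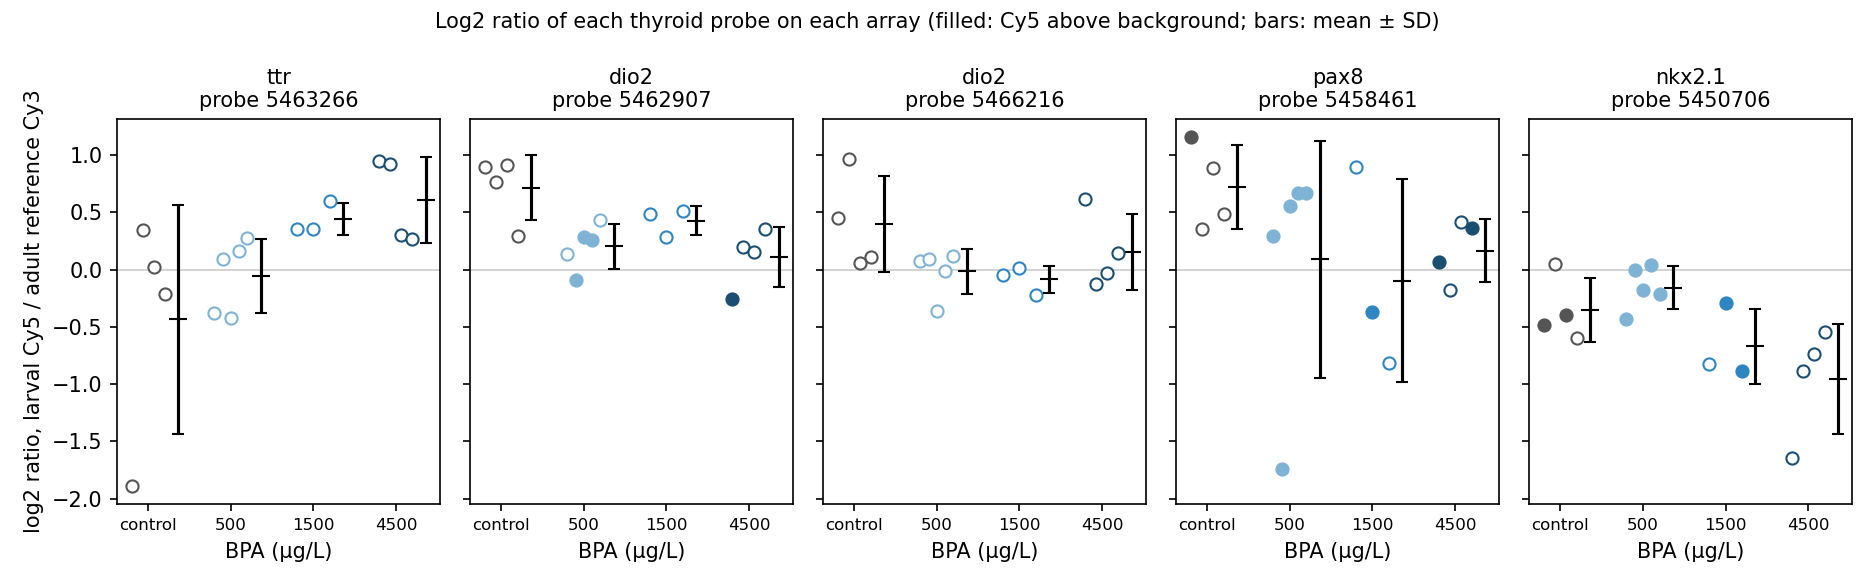
Log2 ratio of larval Cy5 over adult reference Cy3 signal for each of the 5 probes, with 1 point per array, filled where the larval spot was above background, and the mean ± SD beside each group. For nkx2.1 the 4 arrays at 4500 µg/L lie between -1.64 and -0.55, below all 5 arrays at 500 µg/L, while pax8 spans -1.74 to 0.67 within the 500 µg/L group alone.

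The paired-box factor pax8, which acts in thyroid follicle differentiation and in kidney development, had the largest spread between replicate arrays of the 5 probes at 500 and 1500 µg/L. It was at 1.16, 0.36, 0.89 and 0.48 in controls and at 0.29, -1.74, 0.56, 0.67 and 0.67 at 500 µg/L. At 1500 µg/L its log2 ratios were 0.90, -0.37 and -0.82, and at 4500 µg/L they were 0.07, -0.18, 0.42 and 0.36. The groups overlapped at every concentration, and the spread at 500 and 1500 µg/L exceeded the distance of their means from the control mean. These means were 0.72 ± 0.37 (SD, n = 4) in controls, 0.09 ± 1.03 (n = 5) at 500 µg/L, -0.10 ± 0.89 (n = 3) at 1500 µg/L and 0.17 ± 0.28 (n = 4) at 4500 µg/L.

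All 3 differences of pax8 from the control were negative, at -0.63 (standard error 0.42), -0.82 (standard error 0.48) and -0.56 (standard error 0.45) from the lowest to the highest concentration, but each interval included 0 and the adjusted p in limma was 0.493 or more. The lowest ratio, that of replicate 2 at 500 µg/L, came with a reference intensity of 1576 units, against 466 to 888 units on the other 4 arrays of the group. Without that array, the difference at 500 µg/L was -0.18. At 1500 µg/L, replicate 2 was far brighter than any other array, with 11767 units in the larval and 10367 units in the reference channel, and on replicate 3 only 0% and 2% of the pixels were above background in the larval and reference channel. Leaving out replicate 1, 2 or 3 at 1500 µg/L gave -1.31, -0.68 and -0.46. In the larval channel, the pax8 spot was above background on 1 of 4 control arrays and on 5 of 5 at 500 µg/L. The same held on 1 of 3 arrays at 1500 µg/L and on 2 of 4 at 4500 µg/L. The levels of pax8 in controls and at 1500 µg/L are thus mostly bounds. The median percentile of the larval pax8 spot was 56.9 in controls and 72.7, 69.7 and 67.7 from the lowest to the highest concentration. That of the reference spot was 31.2, 58.0, 86.4 and 61.8 in the same order. The larval rank was thus lower in no BPA group, and the part of the reference channel in the negative differences was not tested.

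Markers of the pronephros, another site of pax8 expression, had median differences of -0.25, -0.42 and -0.29 at 500, 1500 and 4500 µg/L. Among 7 probes for 5 of 12 listed genes, 0 were called, while 1, 3 and 3 were lower by an unadjusted p under 0.05 from the lowest to the highest concentration and 0 were higher, beside 3.72%, 11.2% and 21.8% of all probes in either direction. Their mean log2 ratio per array was 0.44 to 0.59 in controls, 0.21 to 0.27 at 500 µg/L, 0.07 to 0.39 at 1500 µg/L and -0.05 to 0.33 at 4500 µg/L. At 4500 µg/L, slc12a3, a sodium-chloride cotransporter of the distal tubule, was at -0.79 (adjusted p = 0.0531 in limma), and cdh17, a cadherin of the pronephric duct with larval spots above background on 14 arrays, was at -0.29. These marker genes were picked after their values had been seen, as were those named below for inner ear and liver, and the part of the markers in the pax8 values was not tested. At 4500 µg/L, where 3.08% of all probes were called, inner ear markers, 4 probes for 3 of 5 genes, had 1 call. This was 1 of 2 probes of stm (starmaker), at 1.43, with no larval spot above background, and the mean log2 ratio of the 4 probes was -0.78 to -0.55 over control arrays and -0.61 to 0.25 at 4500 µg/L. At 500 and 1500 µg/L that mean was -0.89 to -0.14 and -0.81 to -0.10.

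For the activating deiodinase dio2, probe 5462907 had negative differences from the control at all 3 concentrations. Its log2 ratios were 0.89, 0.77, 0.91 and 0.30 in controls and 0.14, -0.09, 0.29, 0.26 and 0.44 at 500 µg/L. They were 0.49, 0.28 and 0.51 at 1500 µg/L and -0.26, 0.20, 0.15 and 0.36 at 4500 µg/L. The first 3 controls lay above every exposed array, and the fourth control lay among them. The group means were 0.72 ± 0.29 (SD, n = 4) in controls, 0.20 ± 0.20 (n = 5), 0.43 ± 0.12 (n = 3) and 0.11 ± 0.26 (n = 4), so that the order was control, 1500 µg/L, 500 µg/L and 4500 µg/L, with overlap between each neighbouring pair.

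The difference of this dio2 probe was -0.51 (standard error 0.20) at 500 µg/L, where the adjusted p in limma was 1.00 and the exact permutation p 0.0317 (two-sided, 5 arrays against 4, smallest possible 0.0159). At 1500 µg/L it was -0.29 (standard error 0.23). At 4500 µg/L it was -0.60 (standard error 0.21, 95% confidence interval -1.05 to -0.16). Its adjusted p was 0.112 in limma, beside an exact permutation p of 0.0571 (two-sided, 4 arrays against 4). In the larval channel, the spot was above background on none of the 4 control arrays and none of the 3 arrays at 1500 µg/L. It was above background on 3 of 5 arrays at 500 µg/L and on 1 of 4 at 4500 µg/L. The levels in controls and at 1500 µg/L are thus bounds, and that at 4500 µg/L is mostly a bound. By median percentile, the larval spot stood at 68.0 in controls and at 68.9, 42.8 and 66.2 from the lowest to the highest concentration. The reference spot stood at 28.6, 51.3, 25.5 and 60.2 in the same order. At 500 and 4500 µg/L the rank thus differed from the control mainly in the reference channel, whose part in the differences was not tested.

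The other dio2 probe, 5466216, measured the same gene with larval spots at background throughout. It gave 0.45, 0.97, 0.05 and 0.11 in controls and 0.08, 0.09, -0.36, -0.01 and 0.12 at 500 µg/L. It gave -0.05, 0.01 and -0.22 at 1500 µg/L, all below the 4 controls, as for 3.64% of all probes, and 0.62, -0.13, -0.03 and 0.15 at 4500 µg/L. The differences were -0.41 (standard error 0.22), -0.48 (standard error 0.26) and -0.24 (standard error 0.24), with adjusted p of 0.492 or more in limma. Both dio2 probes thus had negative differences at each concentration, but their log2 ratios correlated across the 16 arrays at only r = 0.16 (Pearson), arrays that share the reference RNA and the exposure groups. The control mean of probe 5466216 was 0.40 ± 0.42 (SD, n = 4).

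**Figure D3:**
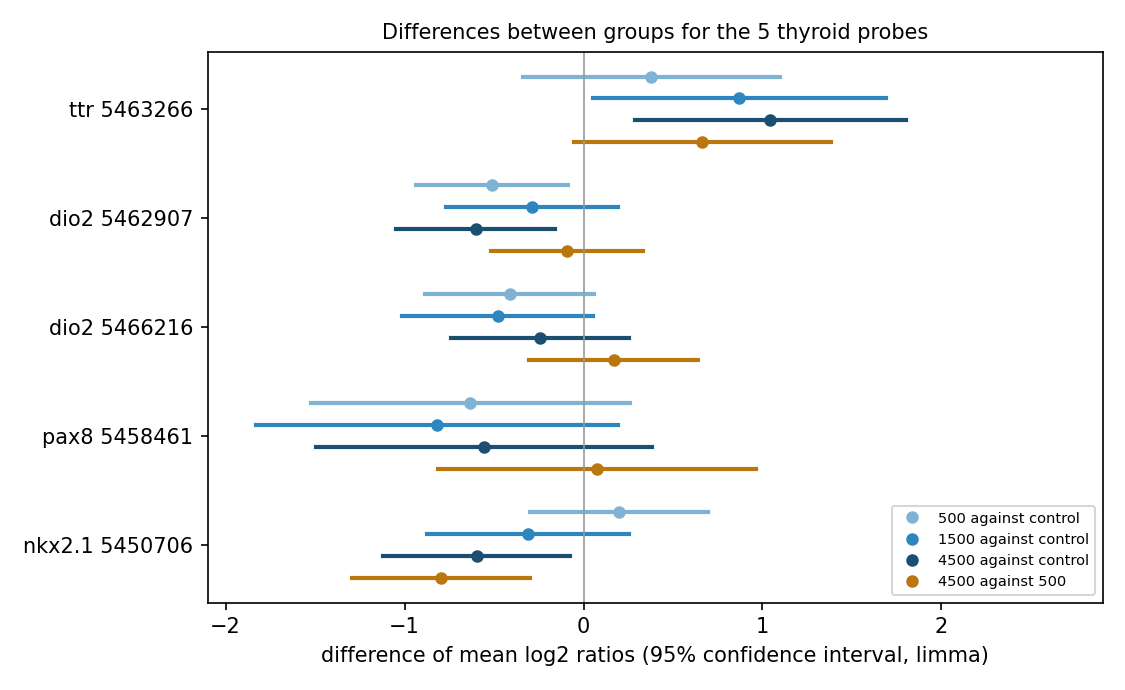
Difference of mean log2 ratios with its 95% confidence interval from limma (x axis, log2) for each of the 5 probes at 500, 1500 and 4500 µg/L against the control and at 4500 against 500 µg/L. The interval of dio2 probe 5462907 at 4500 µg/L runs from -1.05 to -0.16 and that of ttr from 0.29 to 1.80, and no adjusted p is under 0.05.

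Transthyretin (ttr), the hormone carrier, was the only gene of the 4 with positive differences at all 3 concentrations. Its probe is named zgc:103583 on the array. The log2 ratios were -1.89, 0.35, 0.03 and -0.21 in controls and -0.38, 0.09, -0.42, 0.16 and 0.28 at 500 µg/L. They were 0.36, 0.36 and 0.60 at 1500 µg/L and 0.95, 0.93, 0.31 and 0.27 at 4500 µg/L. The 3 arrays at 1500 µg/L lay above the 4 controls, as 6.35% of all probes did, while at 4500 µg/L 2 of the 4 arrays lay within the range of the controls. Control replicate 1 lay far below all other arrays, with a reference intensity of 836 units beside 433 to 619 units on the other 3 controls.

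The group means of ttr were -0.43 ± 1.00 (SD, n = 4) in controls, -0.05 ± 0.32 (n = 5) at 500 µg/L, 0.44 ± 0.14 (n = 3) at 1500 µg/L and 0.61 ± 0.38 (n = 4) at 4500 µg/L. The differences from the control were 0.38 (standard error 0.34), 0.87 (standard error 0.39, adjusted p = 0.422 in limma) and 1.04 (standard error 0.36, 95% confidence interval 0.29 to 1.80, adjusted p = 0.105). The exact permutation test gave p = 0.0571 at 1500 µg/L (two-sided, 3 arrays against 4, the smallest possible) and p = 0.0857 at 4500 µg/L (two-sided, 4 against 4). Without control replicate 1, the differences became -0.11, 0.38 and 0.56, and without background correction the difference at 4500 µg/L was 0.47. In the larval channel, 7% to 30% of the pixels of the ttr spot were above background over the 16 arrays, so that these differences compare spots that were at background in the larval channel. Its median percentile there was 20.2 in controls and 8.6, 19.7 and 31.5 from the lowest to the highest concentration. In the reference channel the median percentile fell from 29.1 in controls to 15.1, 8.1 and 6.0. The part of the reference channel in the positive differences was not tested.

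The liver is a main site of ttr expression, and other liver genes had no common direction. Of 16 probes for 12 of 14 listed hepatocyte genes, 1 was called at 4500 µg/L, against 3.08% of all probes. The called probe was 1 of 3 probes of the fibrinogen gene fga (1.80, larval spot above background on 1 array), while the other fga probes were at -0.65 and -0.24. At an unadjusted p under 0.05, 3 of the 16 were higher and 2 lower at 4500 µg/L, beside 21.8% of all probes in either direction. The median difference of the 16 was 0.00. The mean log2 ratio per array was -0.54 to -0.27 in controls, -0.34 to -0.11 at 500 µg/L, -0.68 to -0.21 at 1500 µg/L and -0.52 to 0.01 at 4500 µg/L. The fatty acid binding protein fabp10a, a defining marker of hepatocytes with larval spots above background on 11 arrays, was at 0.16, and its part in the ttr values was not tested.

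The wider thyroid axis was taken from a list of 67 genes in 8 roles, with ttr, dio2, pax8 and nkx2.1 included. Of the 67 genes, 31 had a probe, with 37 probes in all. Over these probes the median difference was 0.02, 0.00 and 0.01 at 500, 1500 and 4500 µg/L, beside 0.02, 0.04 and 0.02 for all probes. At an unadjusted p under 0.05, 3 of the 37 probes were higher and 5 lower at 4500 µg/L (21.8% of all probes in either direction). The counts were 3 higher and 3 lower at 1500 µg/L (11.2% of all probes), and 2 higher and 2 lower at 500 µg/L (3.72%). Without the 4 genes, 27 genes with 32 probes were left. Of these 32, 2 were higher and 3 lower at 4500 and at 1500 µg/L, and 2 higher and 1 lower at 500 µg/L. Their median difference was 0.02, 0.01 and 0.04 at 500, 1500 and 4500 µg/L. No probe carried the symbol of any of the 8 listed genes of hormone synthesis, among them tg (thyroglobulin), tpo (thyroid peroxidase), slc5a5 (the iodide transporter) and tshr (the thyrotropin receptor). Follicle cells could thus not be checked by their defining genes. A symbol was given for 11724 of the 23232 spots, and spots without a symbol were not searched for these genes.

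Of the 37 probes of the list, 1 was called, at 4500 µg/L against 3.08% of all probes, and its spots were mostly at background in the larval channel. For the sulfotransferase sult1st2, of a family that conjugates phenols and thyroid hormones, the difference at 4500 µg/L was 1.56 (standard error 0.37, adjusted p = 0.0321 in limma). Its log2 ratios were -1.04, -1.97, -0.72 and -0.68 in controls and 0.23, 0.08, 0.36, -0.35 and -0.10 at 500 µg/L. They were 0.36, -0.80 and 1.23 at 1500 µg/L and 1.06, 0.41, 0.42 and -0.06 at 4500 µg/L. All arrays at 4500 µg/L lay above all controls, as 5.59% of all probes did, and the same held at 500 µg/L, as for 0.866% of all probes. The differences at 500 and 1500 µg/L were 1.14 (standard error 0.35) and 1.36 (standard error 0.40), without a call. No fold is given, since just 4 of its 16 larval spots cleared background, with 0 of 4 among the controls and 1 of 4 at the highest concentration. The call at 4500 µg/L was lost (adjusted p between 0.0664 and 0.114) without control replicate 1, 2 or 3 and without replicate 1, 2 or 3 at 4500 µg/L, where the difference was 1.27 to 1.68. It was also lost with a block for the arrays of low Cy3 background (1.26, adjusted p = 0.196), on the arrays of higher Cy3 background alone (1.60, adjusted p = 0.177), without background correction (0.66, adjusted p = 0.0995), with the methods' t-test (adjusted p = 0.269) and with only the 2 groups compared (adjusted p = 0.0560 in limma).

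**Figure D4:**
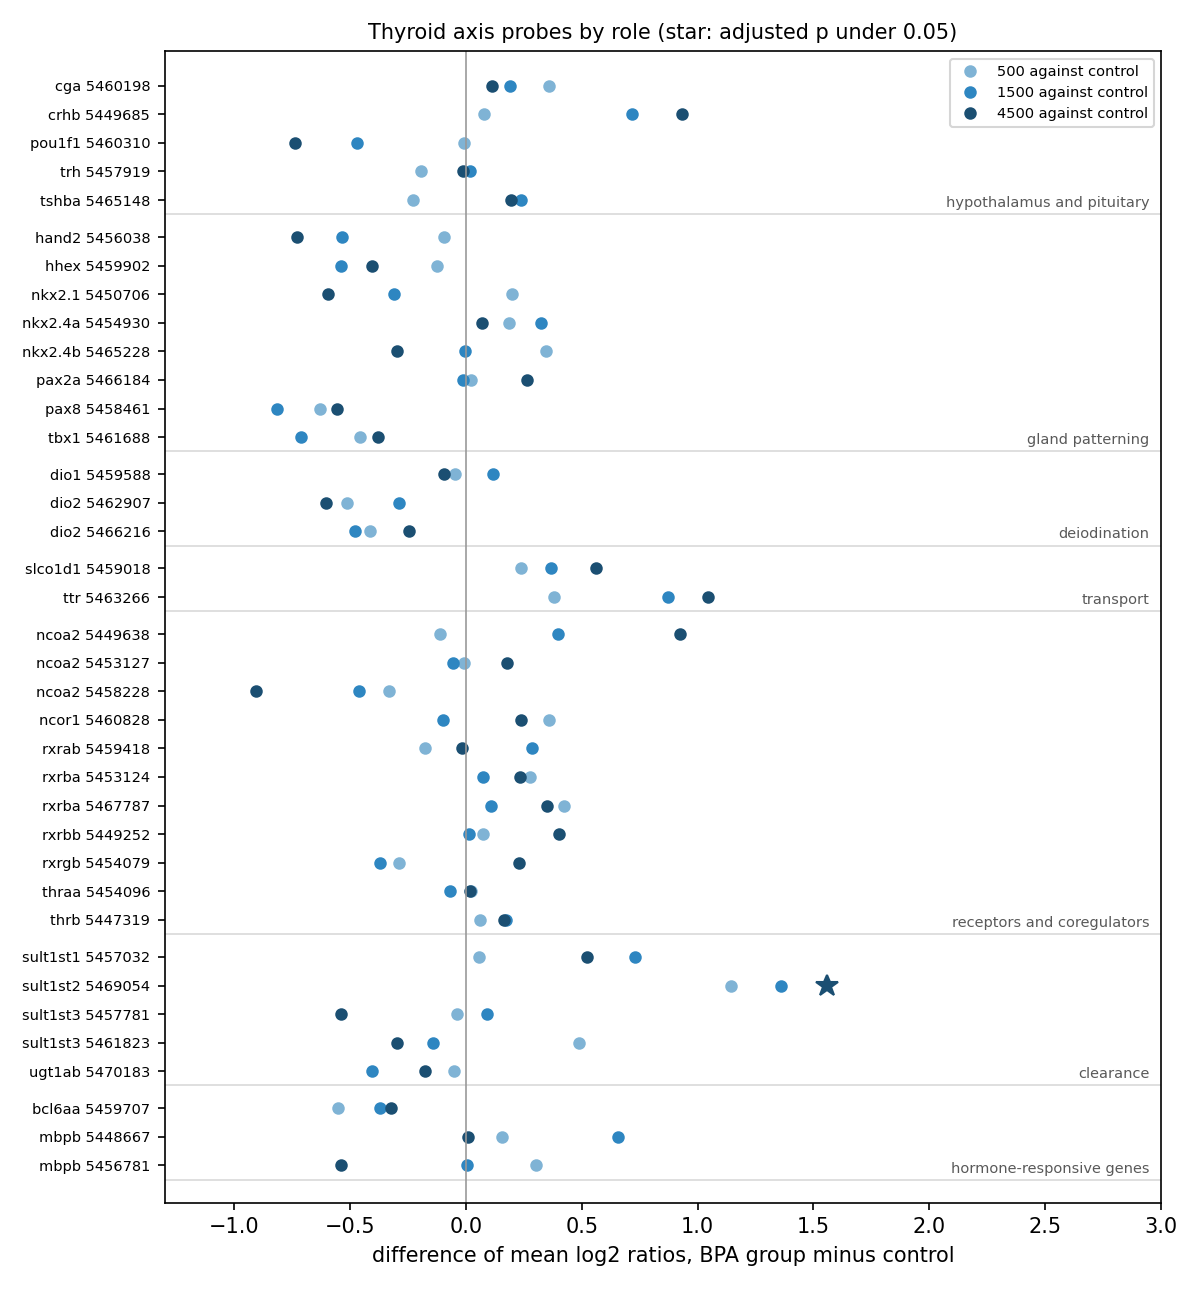
Difference of mean log2 ratios from the control (x axis, log2) at 500, 1500 and 4500 µg/L for the 37 probes of the thyroid axis list, grouped by role. The star marks the only value with an adjusted p under 0.05, sult1st2 at 4500 µg/L (1.56). The 8 gland patterning probes, nkx2.1 and pax8 among them, have a median of -0.39 at 4500 µg/L.

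Among the gland patterning genes, 8 of 9 were measured with 8 probes. The values of nkx2.1 and pax8 given above are part of this group. The median difference of the 8 probes was -0.04, -0.42 and -0.39 from the lowest to the highest concentration. Their mean log2 ratio per array was -0.05 to 0.29 in controls, -0.01 to 0.19 at 500 µg/L, -0.24 to -0.06 at 1500 µg/L and -0.35 to -0.01 at 4500 µg/L. None was called. At an unadjusted p under 0.05, 3 were lower at 1500 µg/L (hand2, hhex and tbx1) and 2 at 4500 µg/L (hand2 and nkx2.1), and none was higher, beside 11.2% and 21.8% of all probes in either direction. The factor hand2, which acts in heart and pharyngeal mesoderm beside the gland in zebrafish, was at -0.73 (standard error 0.22, adjusted p = 0.0747 in limma) at 4500 µg/L, and hhex, a homeobox gene of the liver and thyroid, at -0.41 (standard error 0.21). The names of hand2, hhex and tbx1 were picked after their values had been seen. Larval spots of the 8 probes were above background on 0 to 9 of the 16 arrays, so that these differences rest in part on bounds.

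In the hypothalamus and pituitary group, trh (thyrotropin-releasing hormone) was at -0.01 (standard error 0.27) and tshba (the thyrotropin beta subunit) at 0.19 (standard error 0.29) at 4500 µg/L. The 5 probes of this group had 0 calls. Pituitary markers, 6 probes for 6 of 9 genes, also had 0 calls, with a mean log2 ratio per array of -0.31 to 0.16 in controls, -0.26 to -0.02 at 500 µg/L, -0.06 to 0.17 at 1500 µg/L and 0.04 to 0.28 at 4500 µg/L. The gene pomca is on both the pituitary and the forebrain list.

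The remaining roles gave no further call. The other deiodinase measured, dio1, was at -0.10 (standard error 0.29) at 4500 µg/L, and the organic anion transporter slco1d1 at 0.56 (standard error 0.40). Larval spots of the 3 deiodinase probes were above background on 0 to 4 of the 16 arrays, and those of the 2 transport probes on 0 to 5. The thyroid hormone receptors thraa and thrb were at 0.02 (standard error 0.29) and 0.16 (standard error 0.42), within 11 receptor and coregulator probes with 0 calls. Of the conjugating enzymes, ugt1ab was at -0.18 (standard error 0.26) and sult1st1 at 0.52 (standard error 0.38). The myelin gene mbpb, which responds to thyroid hormone in mammals, had 0.01 and -0.54 at its 2 probes, and bcl6aa was at -0.33 (standard error 0.22).

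The genes whose log2 ratios followed each probe most closely over the 16 arrays were sought among all probes with a symbol. For nkx2.1 they were zgc:86764 (Pearson r = 0.92), dap1b (0.90) and glra3 (0.90). For pax8 they were mos (0.86), arl14ep (0.78) and col15a1b (0.77), and for ttr opn1mw1 (0.92), mif4gda (0.83) and ripk4 (0.82). The probes of dio2 had no such gene in common, with wu:fc21g02 (0.82), gpia (0.78) and myom1a (0.78) for 5462907 and nup153 (0.82), cel.2 (0.80) and gcc1 (0.80) for 5466216. Many of these partners were themselves at background in the larval channel. Those of pax8 and ttr were above it on 0 to 2 of the 16 arrays, those of dio2 on 0 to 12 and those of nkx2.1 on 3 to 12. All these arrays share the reference RNA and the exposure groups, and only the highest of many correlations are given, so that they describe likeness only. Between the 5 probes themselves, r ran from -0.45 (ttr and dio2 probe 5462907) to 0.53 (dio2 probe 5462907 and pax8).

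**Figure D5:**
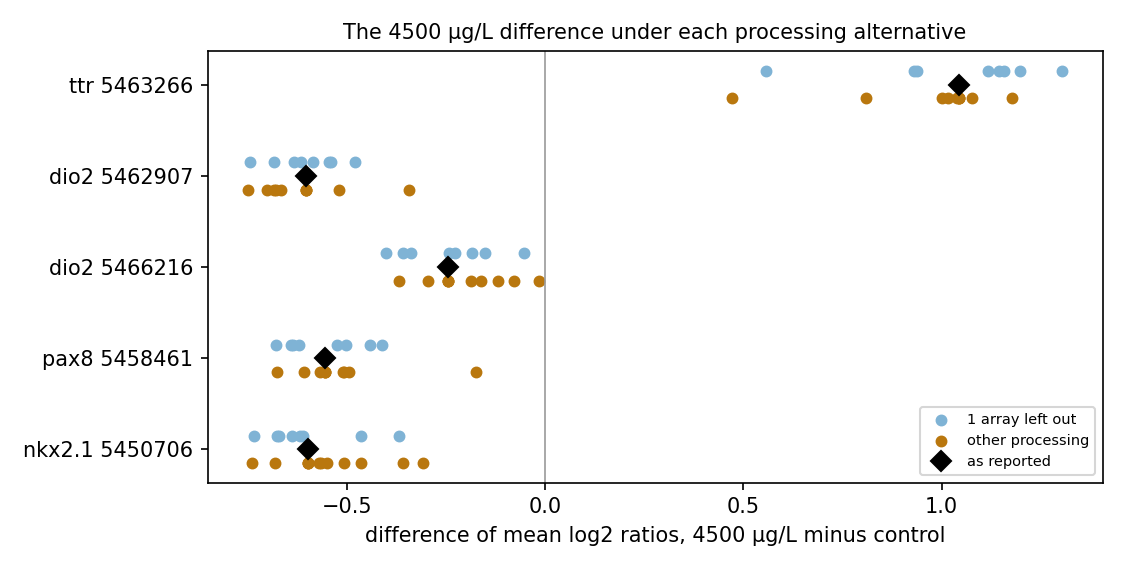
Difference of mean log2 ratios at 4500 µg/L from the control (x axis, log2) for the 5 probes as reported (diamonds), with 1 array left out (upper points) and under other processing (lower points). The values stay on 1 side of 0 for each probe, and those of ttr run from 0.47 to 1.30.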

How the data were processed

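Larval RNA (Cy5) and adult reference RNA (Cy3) were compared on 2-colour spotted oligonucleotide arrays of 23232 spots. The deposited intensity values are foreground and local background per spot, with the deposited percent of pixels above the background plus 2 standard deviations. The authors deposited log2 Lowess-normalized ratios of spots that were not marked as bad. In the file of control replicate 1, 16654 lines were shifted by 1 column, which was corrected.

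Groups follow the sample labels. Scans that shared at least 99.8% of Cy5 values were averaged, which leaves 16 arrays (any other pair shared at most 0.478%). Background correction used normexp (offset 50) on mean foreground and median background, ratios were loess-normalized within arrays, every spot was kept, and spots of an accession were averaged. limma 3.58.1 in R 4.3.3 fitted the 4 group means with Benjamini-Hochberg adjustment over all 22980 probes, and it was tested on simulated data. In all, 30 exact permutation tests were run, with unadjusted p. Probes were named by accession (55 spots), current symbol (3538) or older name (8000). Python 3.11.15 with scipy 1.17.1 was used for the rest.

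The members, the gene lists and the marker lists (hepatocytes, pronephros, hypothalamus and ventral forebrain, pituitary, inner ear) were chosen with earlier results of these data known. Named by rule were every member probe, in each role the first 2 measured genes of the list, any called gene of the list, and for each member probe the 3 genes with the highest r. Alternatives numbered 27 planned and 2 added. Same-numbered arrays of different groups did not deviate together (21 pairs, median r 0.00).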

Additional observations from a re-analysis of the deposited data

Results flagged for a closer look

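Dixon's test was run on 15 sets of values, each of the 5 probes in each group of 4 or 5 arrays. In 2 sets an array stood far from the others of its group, where the test flags about 1 in 20 sets by chance. Sets of the same group share its arrays. For pax8, replicate 2 at 500 µg/L was at -1.74, while the other 4 arrays of the group lay between 0.29 and 0.67. For dio2 probe 5466216, replicate 3 at 500 µg/L was at -0.36, while the other 4 lay between -0.01 and 0.12. The authors kept a ratio for neither spot.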

How the results depend on the processing

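None of the 5 probes passed an adjusted p of 0.05 against the control under any alternative that could be fitted. On the kept spots and on the authors' ratios, only nkx2.1 could be fitted, and ttr, pax8 and both dio2 probes could not. At 4500 µg/L the difference from the control ran from 0.47 to 1.30 for ttr, from -0.75 to -0.34 for dio2 probe 5462907 and from -0.74 to -0.31 for nkx2.1. The sign turned for ttr at 500 µg/L without control replicate 1 (-0.107, range with 1 array left out -0.107 to 0.639), for nkx2.1 at 1500 µg/L on arrays with a Cy3 background of at least 150 units (0.0657, with a single array left at 1500 µg/L), and, at 4500 against 500 µg/L, for dio2 probe 5462907 without replicate 1 at 4500 µg/L (0.0318, range -0.172 to 0.0318) and for pax8 with median centring (-0.0214), array weights (-0.0980), without replicate 2 at 500 µg/L and without replicate 3 at 4500 µg/L (-0.00749, range -0.381 to 0.222). Of 106 group means of the log2 ratio under other settings, 93 stayed within 1 SD. The cause of these changes was not tested.

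Counts over all probes moved more. The fits on kept spots and on the authors' ratios tested 3878 probes, the others 22980. On the arrays of higher Cy3 background 1 array was left at 1500 µg/L, so that its comparisons take the spread from the other groups. Ranges with 1 array left out cover the arrays of the compared groups. At 4500 µg/L, 707 probes were called, but 4 without background correction, 1 with only the kept spots, 0 with the authors' ratios, 1415 with array weights, 18 with a block for low Cy3 background, 1644 with 18 scans as separate arrays, 0 with the methods' t-test, 157 with only the 2 groups and 2 on the arrays of higher Cy3 background (added after seeing the data), and 25 to 2888 with 1 array left out. At 1500 µg/L, 3 became 8 with median centring, 643 with weights, 361 with 18 scans, 207 on the higher-Cy3 arrays, 0 without background correction, with the kept spots, the authors' ratios, the Cy3 block, the methods' t-test or the 2 groups, and 0 to 5 with 1 array left out (10 without replicate 4 at 4500 µg/L, which enters only through the shared spread). At 4500 against 500 µg/L, 19 became 0 without background correction, 356 with median centring, 0 with the kept spots and with the authors' ratios, 78 with weights, 0 with the Cy3 block, 184 with 18 scans, 10 with a running median subtracted, 0 with the methods' t-test, the 2 groups or the higher-Cy3 arrays, and 0 to 1682 with 1 array left out. At 1500 against 500 µg/L, 0 became 1 with median centring, weights, 18 scans or the methods' t-test and 190 on the higher-Cy3 arrays, and at 4500 against 1500 µg/L 0 became 114 there. The F-test's 1446 became 608 without background correction, 2310 with median centring, 0 with the kept spots and with the authors' ratios, 5041 with weights, 20 with the Cy3 block, 4969 with 18 scans, 64 with the methods' ANOVA, 298 on the higher-Cy3 arrays, and 235 to 4450 with 1 array left out. By the methods' own 2 steps (ANOVA at the false discovery rate above, then their t-test unadjusted), applied here to the ratios of all spots on the 16 arrays rather than to the values the authors tested, 23, 51 and 63 probes passed at 500, 1500 and 4500 µg/L.

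With the replicate number as a block, the numbers being shared labels only, the calls were 393 at 4500 µg/L, 0 at 1500 µg/L, 0 at 4500 against 500 µg/L and 482 by the F-test, and none of the 5 probes was called.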
